A study of Mus musculus with 2 samples.

Results

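Voltage-gated and potassium channel subunits were compared between 2 mouse embryonic retinas, 1 wild-type and 1 without functional Sox11. The members were taken by a pattern of gene symbols, which was chosen with earlier results of these data known. Only probe sets that carry exactly 1 symbol were used. The symbols start with Kcn, a family letter and a number, or with Cacna, Cacnb or Cacng. Those of Scn alpha and beta genes and of Hcn genes were taken too. The pattern took 121 genes, with 254 probe sets, of 18193 genes with 1 symbol. They are 81 potassium channel subunits, 24 calcium channel subunits, 11 sodium channel subunits, 2 Hcn genes and 3 non-coding transcripts (Kcnq1ot1, Kcnmb4os1 and Kcnmb4os2) whose symbols fit the pattern. Each gene took the value of its probe set with the highest mean over both arrays.

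The wild-type sample and the Sox11-/- sample were littermates of C57BL/6 background at embryonic day 18, and total RNA of 1 retina of each was amplified and hybridised to 1 Affymetrix array. Which stretch of Sox11 the mutant allele lacks, and whether the allele acts in all tissues, is not given in the sources used here. Neither genotype was replicated, so no spread over animals and no test can be given; each difference is one between these 2 arrays, and their number limits the precision. Of 6 Sox11 probe sets, 5 were lower on the knockout array, with log2 ratios from -3.64 to 1.08. Retinal identity was checked with 8 measured genes (Pax6, Rax, Six3, Six6, Crx, Otx2, Isl1 and Atoh7), all above the low-value filter on both arrays. Their summed intensities were 9101.3 (wild type) and 9547.0 (knockout). Of the 8, 3 had positive and 5 negative log2 ratios. Atoh7 was 1.83-fold higher on the knockout array (945.0 and 1731.0, log2 ratio 0.87), and no other was 1.5-fold apart. The sexes of the embryos differed on the arrays: Eif2s3y, on the Y chromosome, read 214.0 and 4.7, and Xist read 12.3 and 922.7, in the wild type and the knockout respectively. The 3 members on the X chromosome were Kcne1l (116.7 and 116.3), Kcnd1 (20.6 and 15.5) and Cacna1f (17.1 and 15.8). Kcnd1 passed the low-value filter through the wild-type array only and Cacna1f on neither array, so their directions say little. With 1 array per genotype, sex and genotype cannot be told apart for any member.

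Ion channels of these families set the electrical behaviour of neurons. Sodium channels carry the upstroke of the action potential, potassium channels repolarise the membrane and hold its resting potential, and calcium channels couple depolarisation to transmitter release and gene expression. A pore-forming alpha subunit usually works with auxiliary subunits that change its gating or its delivery to the membrane. In the retina, ganglion cells fire action potentials, photoreceptors and bipolar cells signal mostly with graded potentials, and Müller glia buffer potassium through inward rectifiers.

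Expression of the channel genes as a whole was level between the arrays. Ratios are knockout minus wild type of log2(intensity + 5), a scale that understates the change of dim genes. Of the 121 members, 64 (52.9%) passed the low-value filter, meaning that at least 1 array read 18.6 or more, the pooled median over all probe sets; 54 were above it on both arrays. For all genes the share past the filter was 63.5%. The 64 members had a median log2 ratio of -0.01, the same as that of all 11553 genes past the filter, and without any filter the medians were -0.04 over 121 members and -0.01 over all genes. A positive ratio was found in 29 of the 64 (45.3%), beside 47.7% of all genes. In RNA from a whole retina, fewer cells of a type and less RNA per cell cannot be told apart.

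At 1.5-fold on this scale (0.58 log2 units), 4 members were higher on the knockout array and 6 were lower. That is 6.25% of the members past the filter against a background of 3.81% of all genes for the higher ones, and 9.38% against a background of 2.17% for the lower ones. Of these 10 members, 5 passed the filter on their brighter array only, so their entry depended on the array on which they were high. The dimmest of 4 equal bands of level held 40 of the members past the filter (62.5%). In that band 2 members (5%) were 1.5-fold higher where 10.7% of all its genes were, and 5 (12.5%) were 1.5-fold lower where 5.57% of all its genes were. In the second band 2 of 16 members were higher and 1 was lower, beside 2.56% and 1.56% of all genes. No member was 1.5-fold apart in the third and the fourth band, which held 6 and 2 members; the shares of all genes there were 1.52% and 1.18% in the third band and 0.485% and 0.381% in the fourth. At 2-fold, 1 member was higher (background 0.961%) and 1 lower (background 0.407%), both of them dim. The balance of higher and lower members depended on scaling: as deposited, 40% of them were higher, with quantile-normalised arrays 3 of the 12 past 1.5-fold (25%), and with a loess correction 2 of 12 (16.7%). Over all genes the share higher among those past 1.5-fold moved in parallel, from 63.7% to 44.3% and 41.3%.

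**Figure D1:**
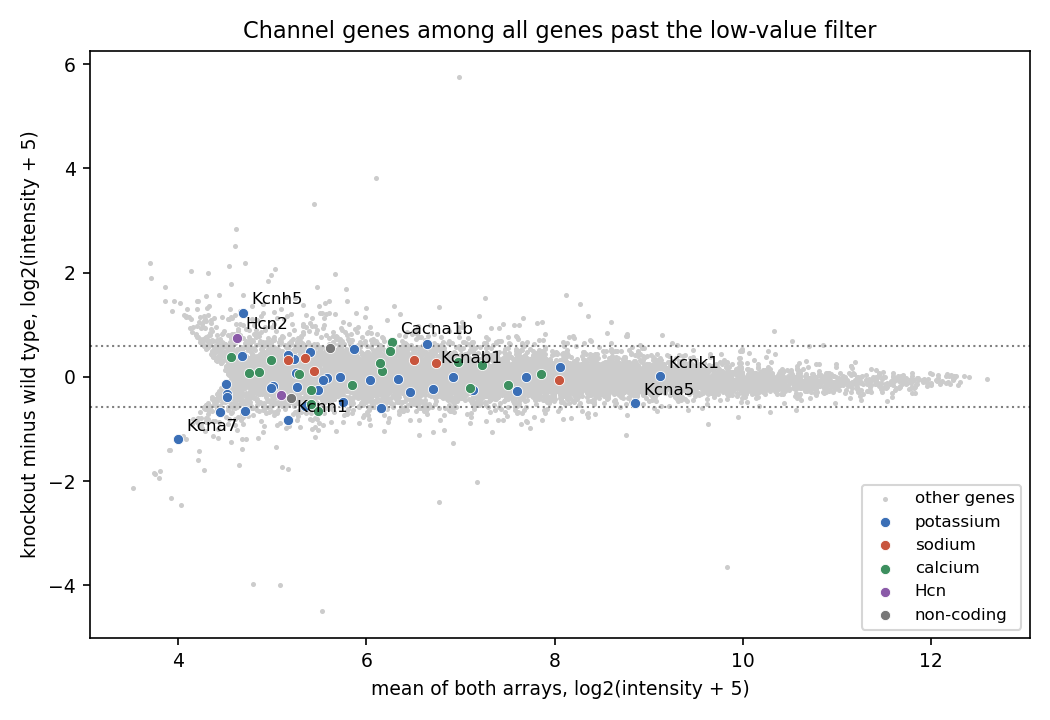
Log2 ratio (knockout minus wild type, vertical axis) against the mean log2(intensity + 5) of both arrays (horizontal axis) for all 11553 genes past the low-value filter, in grey, with the 64 channel genes in colour by ion; dotted lines mark 1.5-fold. The channel genes lie mostly in the dim left part of the cloud, and Kcnh5, Kcna7 and Hcn2 are dim genes.

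The 5 members at least 1.5-fold apart and above the filter on both arrays were Cacna1b and Kcnab1 (higher) and Cacnb1, Kcnd2 and Kcnn1 (lower). Among all genes above the filter on both arrays, 2.47% were 1.5-fold higher and 1.47% lower; of the 54 such members, 2 were higher and 3 lower. Because the mutated gene encodes a DNA-binding protein, the stretch of 250 bases before a start of each of these 5 genes is shown, read from RefSeq's promoter table of build GRCm38.p6, 5′ to 3′ on the strand of the gene. Capitals mark ACAAAG or ACAATG on either strand (CTTTGT and CATTGT on the opposite one), core motifs of the kind that HMG boxes of Sox proteins bind.
Cacna1b (chr2:24763153-24763402, minus strand, 1 start listed): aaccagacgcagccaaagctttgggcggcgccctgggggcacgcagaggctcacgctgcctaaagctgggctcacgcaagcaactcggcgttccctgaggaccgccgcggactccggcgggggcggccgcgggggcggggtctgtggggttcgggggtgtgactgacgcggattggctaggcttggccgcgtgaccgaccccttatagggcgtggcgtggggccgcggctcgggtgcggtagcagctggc
Kcnab1 (chr3:65187853-65188102, plus strand, 3 starts listed): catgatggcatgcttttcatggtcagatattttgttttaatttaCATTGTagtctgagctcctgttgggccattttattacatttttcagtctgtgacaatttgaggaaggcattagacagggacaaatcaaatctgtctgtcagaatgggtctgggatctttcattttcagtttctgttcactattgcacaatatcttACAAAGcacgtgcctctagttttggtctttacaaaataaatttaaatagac
Cacnb1 (chr11:98022628-98022877, minus strand, 2 starts listed): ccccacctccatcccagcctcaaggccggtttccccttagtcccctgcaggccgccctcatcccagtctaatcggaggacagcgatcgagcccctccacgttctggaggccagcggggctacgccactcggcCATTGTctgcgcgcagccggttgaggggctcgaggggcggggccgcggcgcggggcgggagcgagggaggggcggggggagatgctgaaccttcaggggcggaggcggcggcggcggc
Kcnd2 (chr6:21215096-21215345, plus strand, 1 start listed): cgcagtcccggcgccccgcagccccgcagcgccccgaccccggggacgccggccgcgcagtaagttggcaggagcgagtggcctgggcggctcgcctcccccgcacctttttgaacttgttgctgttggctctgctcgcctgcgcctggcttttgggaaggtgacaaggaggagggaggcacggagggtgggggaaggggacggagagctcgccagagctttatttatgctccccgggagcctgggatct
Kcnn1 (chr8:70863259-70863508, minus strand, 2 starts listed): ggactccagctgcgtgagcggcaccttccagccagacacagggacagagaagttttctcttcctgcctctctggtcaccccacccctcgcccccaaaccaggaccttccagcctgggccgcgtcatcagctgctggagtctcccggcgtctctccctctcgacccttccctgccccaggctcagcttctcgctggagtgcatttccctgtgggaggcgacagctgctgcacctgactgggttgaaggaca

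The 5 stretches differ in base composition and in matches. Where several starts are listed, the one with the most matches is shown, and which start served the hybridised RNA is not known. The Kcnab1 stretch has 35.6% G and C with 1 CpG, and holds ACAAAG beginning 51 bases before the start and ACAATG on the opposite strand from 206 bases before it. The other 4 stretches have 63.6% (Kcnn1) to 73.2% (Cacnb1) G and C and 10 to 29 CpGs, and among these only Cacnb1 has a match within the 250 bases, 1 ACAATG on the opposite strand from 118 bases before the start. Of the 2 listed starts of Kcnn1, 1 has an ACAAAG that reaches into the 50 bases after it, which are not shown. Matches on either strand were counted there, and that start may not be the one shown. Across the windows of 300 bases (250 before a start and 50 after it), 92 members had 127 windows. ACAAAG was in 17.3% of these windows and in 18.7% of all 32851 windows in the table; ACAATG was in 6.3% and 12.6%. The member windows had a median G and C content of 58.0%, beside 52.7% over all windows, and a median of 9 CpGs beside 7. A match is only a match of letters, and the members that differed most between the arrays include genes with and without one.

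**Figure D2:**
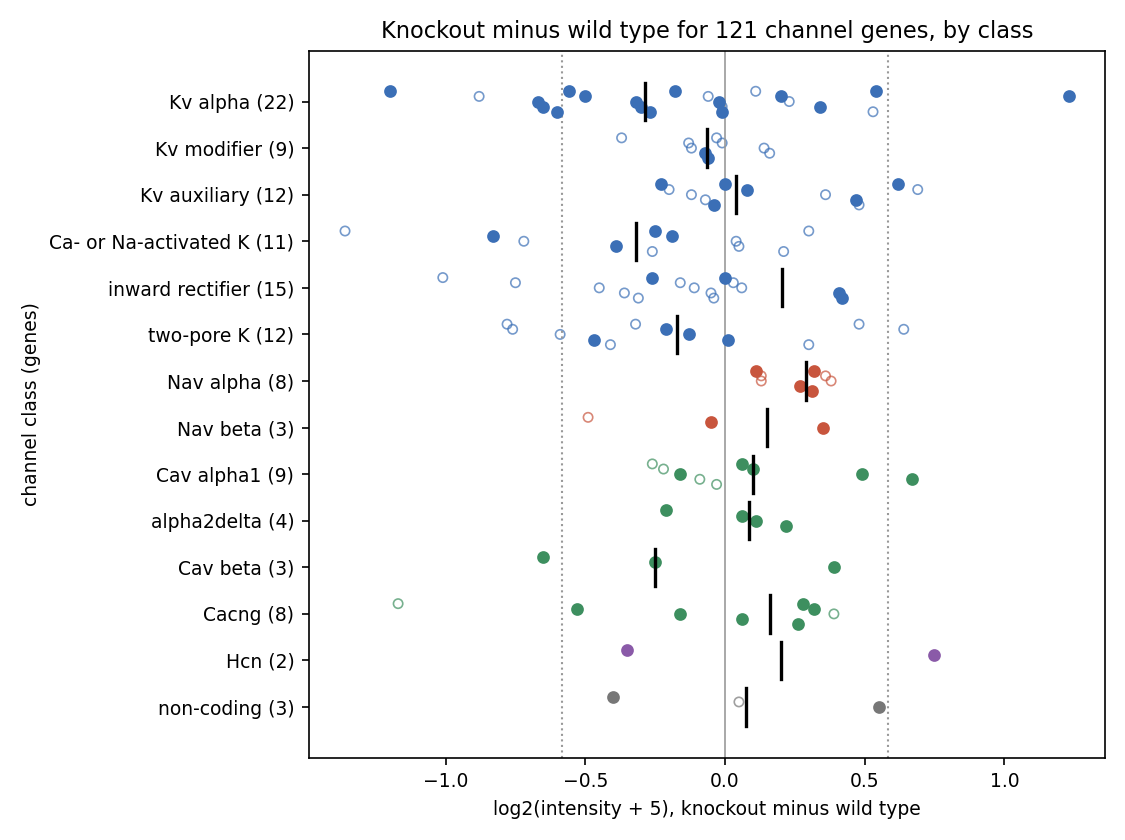
Log2 ratio (knockout minus wild type) of all 121 genes by channel class, with the number of genes in brackets; filled points passed the low-value filter, open points did not, black bars are medians of the filled points, and dotted lines mark 1.5-fold. Blue is potassium, red sodium, green calcium, purple Hcn and grey non-coding; the filled Nav alpha points all lie above 0, and 12 of the 16 filled Kv alpha points lie below it.

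The 3 ion families had different balances of sign. Among potassium channel subunits 10 of 36 past the filter had a positive ratio and 26 a negative one, with a median of -0.16. Of the 36, 28 were above the filter on both arrays. The others passed on 1 array only, so their signs were fixed by entry. Kcna7, Kcnc4, Kcnd1, Kcnh3, Kcnk5 and Kcnmb2 were negative through the wild-type array, Kcnh5 and Kcnj3 positive through the knockout array. With dimmer intensities raised to 18.6 the family median was -0.06. Over all 81 without a filter it was -0.07, with 27 positive. With the filter set on the mean of both arrays, 10 of 31 potassium channel subunits were positive and their median was -0.06. Sodium channel subunits were positive in 5 of 6, with a median of 0.29, in 4 of 6 after quantile normalization, and in 9 of 11 without a filter, where the added genes are dim. Calcium channel subunits were positive in 12 of 18, with a median of 0.08. Of the 18, 17 were above the filter on both arrays, and Cacnb2 passed through the knockout array only. After quantile normalization and after loess 9 of 18 were positive, with medians of 0.00 and -0.01. Under those scalings the potassium medians were -0.29 and -0.28 and the sodium medians 0.20 and 0.20. A difference between the families was not tested.

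Pore-forming Kv subunits, the class with the most members past the filter, had a median log2 ratio of -0.29 (-0.15 when floored at 18.6), ranging from -0.34 to -0.12 over the settings. Of 22 Kv alpha genes 16 passed the filter; 1 (6.25%) was at least 1.5-fold higher and 4 (25%) were lower, beside 3.81% and 2.17% of all genes, and 10.7% and 5.57% of all genes in the dimmest band. Of these 5, Kcnh5, Kcna7, Kcnc4 and Kcnh3 passed on 1 array only, so their direction was fixed by entry, and only Kcnd2 was above the filter on both. Both ends of the class range, Kcna7 (-1.20) and Kcnh5 (1.23), rest on a dimmer value under the filter. Among the Shaker-related genes, Kcna5, a delayed rectifier, went from 544.1 on the wild-type array to 382.8 on the knockout array, 1.42-fold lower with a log2 ratio of -0.50. It is among the members with the brightest probe sets, and its ratio stayed between -0.53 and -0.48 under all settings tried. It has only 1 probe set, so the settings of filter and probe set choice could not change its ratio. Kcna2 and Kcna1, which encode channels clustered along axons, went the other way: Kcna2 read 43.5 and 65.6 (log2 ratio 0.54) and Kcna1 read 28.6 and 37.4 (0.34). The second passing probe set of Kcna2 gave 0.26, and the 3 of Kcna1 ran from -0.05 to 0.34. Kcna6 was level at 47.9 and 47.7. Kcna7 read 19.3 and 5.6, a log2 ratio of -1.20, but its bound is only 1.04-fold, because the wild-type value barely exceeds the filter.

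Among the Kcnd, Kcnc and Kcnq genes above the filter on both arrays, Kcnd2 and Kcnq3 lay furthest below 0 and only Kcnd3 lay above it. Kcnd2, a pore of A-type currents, read 83.1 and 53.2, a 1.56-fold lower value (log2 ratio -0.60), and its second passing probe set read 22.2 and 17.0 (-0.31). Kcnd3, which makes the same kind of channel, read 244.2 and 280.5 (0.20), with a dimmer probe set at 28.4 and 50.3 (0.73), so the paralogs lay on opposite sides of 0. Kcnd1 read 20.6 and 15.5 (-0.32) and passed the filter through the wild-type array only. Kcnc2, a Shaw-type channel of fast-spiking neurons, read 207.9 and 171.2 (-0.27), while Kcnc1 of the same family was level at 43.4 and 42.8, its 3 probe sets running from -0.36 to -0.02. Kcnc4 read 22.5 and 12.3 (-0.67, at least 1.21-fold lower) and also passed through the wild-type array only. Kcnq3, a subunit of the M-current channel that dampens repetitive firing, read 44.4 and 28.6, a 1.55-fold lower intensity but a log2 ratio of -0.56 on the scale used for calls.

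Genes of the ether-à-go-go family were split. Kcnh5 had the highest ratio of all members, from 11.9 on the wild-type array to 34.7 on the other (1.23, at least 1.87-fold higher), with only 1 probe set. Kcnh3 read 28.0 and 16.0 (-0.65, at least 1.51-fold lower); its 3 other probe sets did not pass the filter, and the median over all 4 was 0.05. Kcnh2, the ERG channel, read 93.2 and 74.8 (-0.30), and Kcnh8 read 29.4 and 25.4 (-0.18). Kcnh5 and Kcnh3 each rest on a single passing probe set and cross the filter value between the arrays.

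Electrically silent Kv modifiers were nearly all dim: 2 of 9 passed the filter, and both were level. Kcnv2, which joins Kv channels of photoreceptors, read 42.8 and 40.6 (-0.07), and Kcns2 read 62.2 and 59.6 (-0.06). Of 12 auxiliary Kv subunits 6 passed, with a median of 0.04. Kcnab1, a cytoplasmic beta subunit of Shaker-related channels, read 76.0 and 119.6, a 1.57-fold higher value (0.62), and its second probe set read 30.2 and 41.4 (0.40). Kcnab2, its paralog, was level at 76.9 and 74.5. The calcium-binding Kcnip proteins, partners of the Kcnd pores, differed among themselves: Kcnip3 read 30.9 and 44.7 (0.47), Kcnip1 read 108.3 and 91.5 (-0.23, the other passing probe set 0.12), and Kcnip4 read 32.3 and 34.3 (0.08).

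Of 11 subunits of channels gated by calcium or sodium 4 passed the filter, all 4 with negative ratios, Kcnmb2 through the wild-type array only; their median was -0.32 (-0.22 when floored at 18.6) and ranged from -0.48 to -0.24 over the settings. Kcnn1, a small-conductance channel that gives the afterhyperpolarisation, read 42.9 and 21.9, a 1.96-fold lower value (-0.83). Its second probe set read 32.8 and 18.9 (-0.66), so both were lower. The large-conductance channel was close to level. Its pore gene Kcnma1 read 36.1 and 31.1 (-0.19), but 2 dimmer probe sets gave 0.18 and 0.48, and its neuronal beta subunit Kcnmb4 read 148.7 and 124.2 (-0.25). Kcnmb2, another beta subunit, read 21.4 and 15.1 (-0.39, at least 1.15-fold lower).

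**Figure D3:**
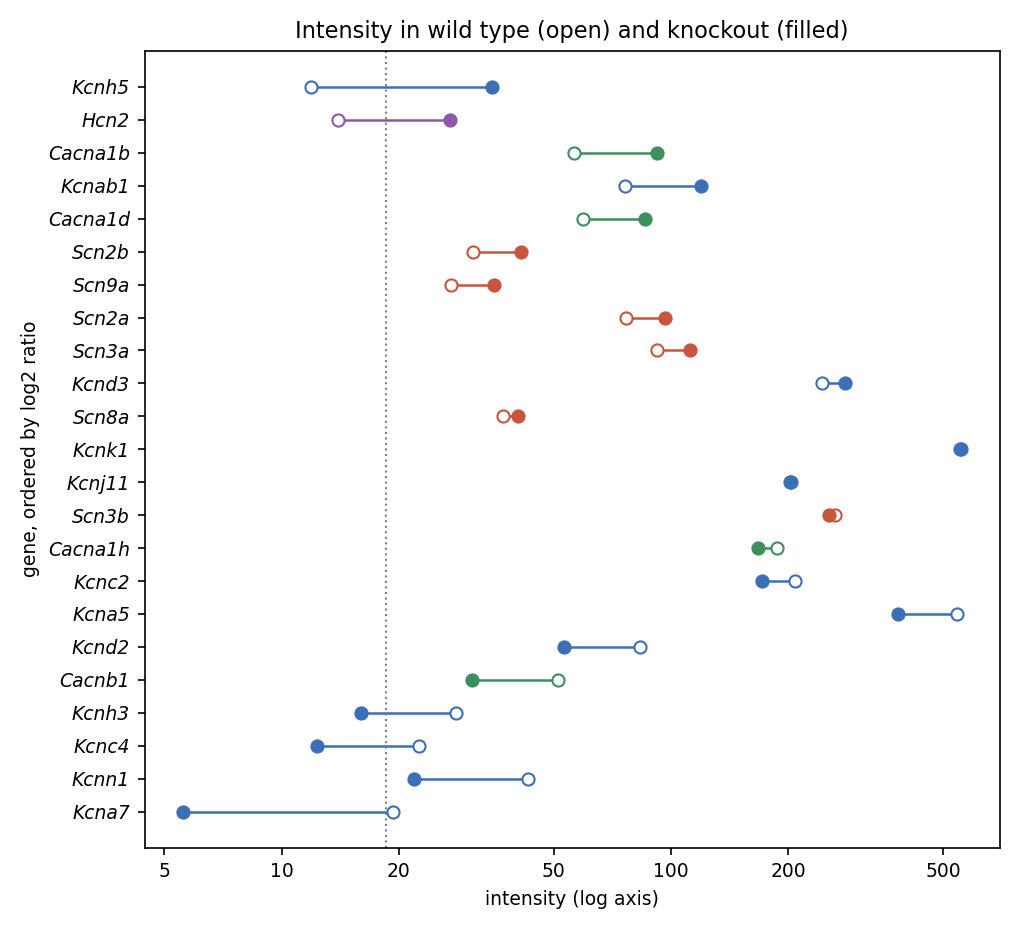
Intensity (log axis) on the wild-type (open) and knockout (filled) array for the 10 members at least 1.5-fold apart, the 6 sodium channel genes past the filter and 7 further genes described in the text; the dotted line is the filter value of 18.6. The bright Kcnk1 and Kcnj11 probe sets read nearly the same on both arrays, while Kcnh5, Hcn2, Kcnh3, Kcnc4 and Kcna7 cross the filter value.

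Among channels that set the resting potential, the bright Kcnk1 and Kcnj11 read nearly the same on both arrays. None of the 8 past the filter was 1.5-fold apart, a count to be read beside the 3.81% and 2.17% of all genes. Of 15 inward rectifiers 4 passed, and Kcnj11, the pore of the ATP-sensitive channel, read 203.2 and 202.6. Kcnj10, the potassium-buffering channel of Müller glia, read 44.1 and 36.0 (-0.26). Kcnj13, known from the apical membrane of pigment epithelium, read 26.2 and 36.7 (0.42), and Kcnj3, a G-protein-gated channel, read 17.3 and 24.6 (0.41, with its second passing probe set at -0.11). Of 12 two-pore channels 4 passed. Kcnk1 read 551.1 and 555.2, and its dimmer probe set gave 0.45. Kcnk2 and Kcnk10, mechanosensitive background channels of the TREK group, read 58.5 and 40.7 (-0.47) and 29.2 and 24.6 (-0.21), and Kcnk5 read 18.8 and 16.7 (-0.13).

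All 4 sodium channel alpha genes past the filter were slightly higher on the knockout array, none by 1.5-fold; after quantile normalization Scn8a was at -0.01, Scn2a at 0.25 and Scn3a at 0.21. Scn2a, the main alpha subunit of immature axons, read 76.5 and 96.3 (0.31), and its other passing probe sets gave 0.46 and 0.49. Scn3a, the alpha subunit most typical of embryonic brain, read 92.2 and 111.9 (0.27), Scn8a, which later takes over at the axon initial segment, read 37.0 and 40.4 (0.11, second passing probe set 0.53), and Scn9a read 27.3 and 35.2 (0.32, second probe set 0.87). The class median of 0.29 ranged from 0.20 to 0.31 over the settings. The other 4 alpha genes, Scn1a, Scn7a, Scn10a and Scn11a, were below the filter on both arrays, so the signs of their ratios carry little. Their brightest probe sets gave 0.13 to 0.38, but the other 2 of Scn7a gave -0.92 and -0.47, and those of Scn1a -0.08 and 0.37. Beta subunits, adhesion-like partners of the pores, did not share the sign: Scn2b read 31.1 and 41.1 (0.35, second probe set -0.23) and Scn3b read 264.5 and 254.8 (-0.05, second probe set 0.31).

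Among calcium channel pores, an N-type and an L-type gene had the highest ratios. Cacna1b, the N-type channel of presynaptic terminals and growing neurons, read 56.2 and 92.2, a 1.64-fold higher value (0.67). Its other 2 passing probe sets read 57.0 and 72.3 (0.32) and 39.2 and 55.0 (0.44), so all 3 were higher. Cacna1d, an L-type channel, read 59.4 and 85.7 (0.49), with its second probe set at 0.42. Cacna1a, the P/Q-type pore, was level at 23.2 and 25.2, as was the T-type pore Cacna1g at 33.1 and 34.8, and the T-type pore Cacna1h read 187.0 and 167.2 (-0.16). Cacna1f, the L-type channel of photoreceptor terminals, was below the filter on both arrays, at 17.1 and 15.8.

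Auxiliary calcium channel subunits went in both directions. Cacnb1, a cytoplasmic beta subunit, read 51.2 and 30.9, a 1.66-fold lower value (-0.65), but its second passing probe set was level at 25.9 and 23.8 (-0.10). Cacnb4 read 41.4 and 34.1 (-0.25), with 3 probe sets from -0.45 to 0.47, and Cacnb2 read 15.7 and 22.1 (0.39, at least 1.19-fold higher). The alpha2delta genes, whose products bring pores to the membrane, lay between -0.21 for Cacna2d2 (142.0 and 122.5) and 0.22 for Cacna2d1 (133.9 and 156.7); the 4 passing probe sets of Cacna2d1 ran from -0.22 to 0.90. Of the Cacng genes, several of which encode partners of AMPA receptors, Cacng4 read 221.8 and 231.5 (0.06), Cacng5 read 109.4 and 134.1 (0.28), Cacng3 read 59.5 and 72.3 (0.26), and Cacng7 read 46.2 and 30.5 (-0.53). The other 2 past the filter were Cacng8 at 0.32 and Cacng2 at -0.16.

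The hyperpolarisation-activated channels were represented by Hcn2, at 14.0 and 27.0 (0.75, at least 1.45-fold higher), and Hcn3, at 33.6 and 25.2 (-0.35). Of the non-coding transcripts, Kcnq1ot1, which is transcribed from within the imprinted Kcnq1 gene, read 35.5 and 54.4 (0.55), and its second passing probe set read 23.4 and 49.0 (0.93). The other 4 Kcnq1ot1 probe sets were below the filter with ratios from 0.02 to 0.71. Kcnq1 itself was below the filter on both arrays, at 2.5 and 2.2. Kcnmb4os2 read 37.3 and 27.0 (-0.40), beside the -0.25 of Kcnmb4, and Kcnmb4os1 read 0.2 and 0.4.

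**Figure D4:**
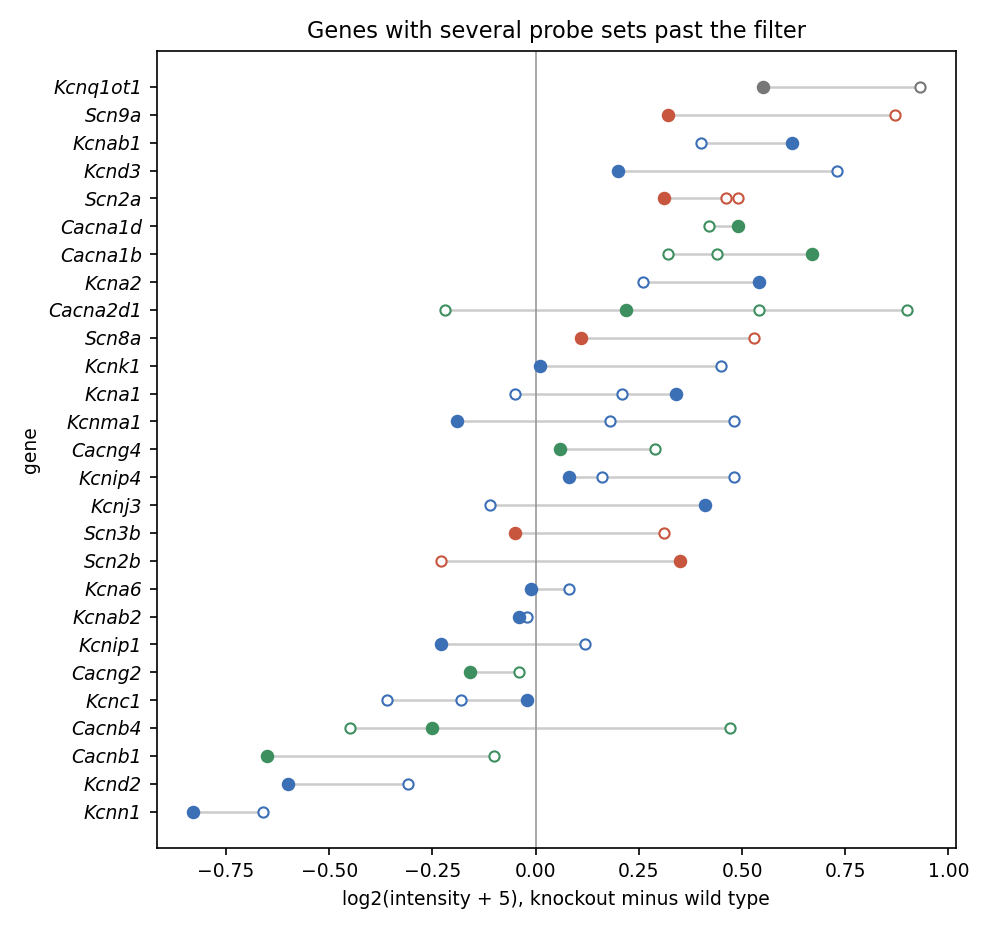
Log2 ratios (knockout minus wild type) of every probe set past the filter for the 27 members with at least 2 such probe sets, ordered by their median; filled points are the brightest probe sets, which stand for the gene, and colours are as for the classes. For 18 of the 27 genes all points lie on 1 side of 0, among them Kcnn1, Kcnd2, Cacnb1, Cacna1b, Cacna1d, Scn2a and Kcnab1.

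Probe sets of the same gene gave a measure of how far a single ratio can be read. Of the 27 members with several probe sets past the filter, 18 (66.7%) had ratios of 1 sign, beside 50% of 5612 such genes in all. The pooled SD of the log2 ratio between probe sets of a gene was 0.29 for the members and 0.26 for all genes. Probe sets of a gene share the RNA and the array and can report different transcripts, so this SD is not the spread between animals. Many members past the filter had ratios smaller than the 0.29 of the members. Among them were Scn3a, Scn8a, Kcnj10, Kcnc2, Kcnd3, Kcnmb4, Cacna1h, Cacna2d1 and Cacng5.

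Of the 121 members, 57 were below the filter on both arrays, so their ratios rest on dim values alone. They include 7 of 9 Kv modifiers, 11 of 15 inward rectifiers, 8 of 12 two-pore channels, 7 of 11 channels activated by calcium or sodium and 6 of 12 auxiliary Kv subunits, but none of the alpha2delta, Cav beta or Hcn genes. The largest log2 ratios among them were those of Kcnn4 (9.6 and 0.7, -1.36), Cacng6 (9.8 and 1.6, -1.17) and Kcnj15 (8.1 and 1.5, -1.01). Both values of each of these genes lie under the filter value, so no fold is given.

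Members that neighbour each other on a chromosome (gene bodies at most 500 kb apart in the GRCm38.p6 gene table) were compared, since related channel genes often sit in tandem. There were 23 groups of neighbours, and 8 held at least 2 members past the filter. In 5 of the 8 the passing members had ratios of 1 sign, in 3 of both signs. How often neighbouring genes in general share a sign was not measured. On chromosome 2, Scn2a and Scn3a lie together, and so do Scn1a, Scn7a and Scn9a further along; the 3 past the filter, Scn2a, Scn3a and Scn9a, had positive ratios. Scn1a and Scn7a were below the filter, and the probe sets of each gave ratios of both signs. Cacna1d and Cacna2d3 on chromosome 14 (0.49 and 0.11) and Cacng4 and Cacng5 on chromosome 11 (0.06 and 0.28) were also positive together, while Kcnmb4 and Kcnmb4os2 on chromosome 10 were negative together. Kcna7 lies near Kcnc1 and Kcnj11 on chromosome 7, both of which were level. That group counted as 1 sign through ratios of -0.02 (Kcnc1) and just under 0 (Kcnj11). The sign of Kcna7 was fixed by entry through the wild-type array. The mixed groups were Kcna1, Kcna5 and Kcna6 on chromosome 6 (0.34, -0.50 and -0.01), Kcna2 and Kcnc4 on chromosome 3 (0.54 and -0.67), and Cacng7 and Cacng8 on chromosome 7 (-0.53 and 0.32).

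Lists of channel genes known from certain kinds of cell, some pooling several kinds, were read beside markers of such cells. Of 15 listed channels of axons and spiking neurons 13 were measured and 11 passed the filter, with 6 positive and 5 negative ratios, a median of 0.11 and summed intensities of 965.9 and 983.7 for the 13. All 9 measured ganglion cell markers had positive ratios, beside 47.7% of all genes, but Nefl was level at 0.01 (second passing probe set -0.04). Of the 9, 2 (22.2%) were at least 1.5-fold higher, Isl2 (0.61) and Ebf3 (0.65), beside 3.81% of all genes. The summed intensities of the 9 were 5911.7 (wild type) and 7030.6 (knockout). Horizontal cell markers had a higher sum too (187.0 and 286.3). The 3 of 4 above the filter on both arrays, Onecut2, Lhx1 and Prox1, had positive ratios. Onecut1 passed through the knockout array only, so its sign was fixed by entry. Amacrine markers were split, with a median of -0.44: Gad1 was 1.58-fold lower (325.1 and 205.3, -0.65, second probe set -0.78), Slc32a1 had -0.47 and Tfap2a -0.44, while Tfap2b (0.16) and Ptf1a (0.09) were not lower. The 5 summed to 2191.2 and 2025.9. The part of these cells in the Cacna1b, Scn2a and Kcna2 values was not tested.

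For photoreceptors, the 6 measured rod markers summed to 1154.1 (wild type) and 475.3 (knockout). The 4 past the filter, Sag, Nrl, Pde6b and Rom1, were all at least 1.5-fold lower, with log2 ratios from -2.40 to -0.84; Pde6b (36.5 and 10.8) passed through the wild-type array only. Gnat1 and Cnga1 were below the filter on both arrays. Of 7 listed photoreceptor channels 5 were measured and 3 passed, Cacnb2 through the knockout array only. Kcnv2 had -0.07, Cacna2d4 0.06 (21.5 and 22.7) and Cacnb2 0.39, while Cacna1f and Kcnj14 (4.0 and 1.6) were below the filter. None of the 3 was 1.5-fold apart, a count to be read beside the 3.81% and 2.17% of all genes. The 5 measured channels had summed intensities of 101.1 and 102.8.

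Markers of some tissues other than neural retina were higher on the knockout array, while the channels listed for immune and muscle cells did not reach the filter. The 8 measured mesenchyme markers summed to 77.2 and 607.3. Of the 7 past the filter, Col1a2 (19.6 and 76.1) was above it on both arrays, and the other 6 passed through the knockout array only, so their positive signs were fixed by entry and are not counted. Col3a1 was the furthest apart of these, at 13.3 and 253.2 (at least 13.6-fold higher). Macrophage markers summed to 328.5 and 706.2. The 7 of 8 above the filter on both arrays had positive ratios, and Mpeg1 (7.3 and 51.1) passed through the knockout array only. Pigment epithelium markers summed to 281.3 and 418.8. Of the 4 above the filter on both arrays, Tyrp1, Dct and Pmel had positive ratios and Mitf had -0.06. Tyr and Ttr passed through the knockout array only. Pericyte and endothelial markers summed to 1003.6 and 888.8, mostly from Kdr (673.2 and 456.1). Cspg4, Pecam1 and Cdh5 were below the filter on both arrays. Of the 4 above the filter on both arrays, Pdgfrb, Rgs5 and Cldn5 had positive ratios and Kdr had -0.56. Abcc9 passed through the knockout array only. The 4 channels listed for blood and immune cells (Kcna3, Kcnn4, Kcnk6 and Kcnk13) were below the filter on both arrays, with sums of 41.6 and 41.9, and so was Kcnj8, a pericyte channel, at 9.0 and 8.0. All 5 measured muscle channels (Cacna1s, Cacng1, Cacng6, Kcnj12 and Kcnmb1) were below it as well, with sums of 24.0 and 16.6, beside muscle markers at 98.1 and 80.5, of which 5 of 7 were below the filter on both. The 6 channels listed for glia, pericytes or pigment epithelium had sums of 689.9 and 677.4, mostly from Kcnk1 (551.1 and 555.2). Some nearly level sums held genes of opposite sign. Lens markers summed to 431.0 and 403.2, with Cryab at -1.28 and Cryba1 at 0.68, and with Crygd at 4.2 and 60.7 (at least 3.26-fold higher). Müller glia markers summed to 3527.7 and 3444.8, mostly from the level Glul (2437.1 and 2428.9), while Rlbp1 had -0.99 and Apoe 0.48. Bipolar markers summed to 996.5 and 1129.2, of which Isl1, also listed for ganglion cells, gave 785.1 and 901.5. Astrocyte markers summed to 41.8 and 43.0. The part of any of these tissues in the ratios of Kcnj13, Kcnh5 or Hcn2 was not tested.

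Genes that work with these channels without belonging to the families were read from a fixed list of 41, of which 36 were measured and 26 passed the filter. Their median log2 ratio was 0.10, with 15 positive and 10 negative ratios; 2 (7.69%) were at least 1.5-fold higher and none was lower, against the 3.81% and 2.17% of all genes. The higher ones were Ank2, an ankyrin that anchors channels and adhesion molecules in axons, at 420.5 and 740.3 (0.81, with 4 passing probe sets from 0.36 to 0.81), and Cntn2, an axonal adhesion molecule that helps cluster Shaker-type channels, at 16.1 and 44.9 (1.24, at least 2.41-fold higher, second probe set 1.68). Cntn2 passed the filter through the knockout array only, so its direction was fixed by entry. Of the 24 partners above the filter on both arrays Ank2 alone was 1.5-fold higher, beside 2.47% of all such genes. Ank3, the ankyrin of the axon initial segment, read 914.9 and 1019.8 (0.16). Of the Nav-binding Fgf genes, Fgf13 read 836.9 and 759.9 (-0.14, second probe set -0.03) and Fgf12 read 138.3 and 128.0 (-0.11, its 3 probe sets from -0.11 to 0.22). Fgf14 read 55.1 and 71.4 (0.35), and its second passing probe set gave 0.64. Dpp6 and Dpp10, partners of the Kcnd pores, read 130.9 and 122.2 (-0.10) and 69.1 and 53.8 (-0.33). Rest, a repressor of many neuronal channel genes, read 109.1 and 139.9 (0.34), but its second passing probe set gave -0.14.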

How the data were processed

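The table deposited by the authors holds 1 linear intensity for every probe set on each of 2 arrays. How they summarised and scaled the probes is not given in the sources used here; both arrays have a trimmed mean of 100 (2% left out per end). After 64 control probe sets were left out, 45037 remained, of which 34945 carry 1 symbol in GEO's platform annotation. All 121 members matched the GRCm38.p6 gene table by Entrez number. Genes were compared as log2(intensity + 5), 5 being the pooled 25th percentile, with no further normalization. A dimmer value below 18.6 gives a lower bound, the brighter intensity over 18.6.

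The members, classes and gene lists were chosen with earlier results of these data known. Genes were named by rule: the 3 brightest of each class, members at least 1.5-fold apart, the members of the channel lists, and listed partners at least 1.5-fold apart; other members were named afterwards to complete their class, and other partners after their values were seen. Alternatives covered scaling (median centring, quantile, loess with span 0.3), pseudocount, filter and probe set choice; a filter on the mean of both arrays and leaving out non-coding transcripts were added later. The procedure was tested on simulated data. Python 3.11.15, pandas 2.3.3, numpy 2.4.6 and statsmodels 0.14.6 were used.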

Additional observations from a re-analysis of the deposited data

How the results depend on the processing

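No paired analysis was possible because each genotype has 1 array. The median over all members stayed between -0.11 and 0.02 under all settings. Counts of members past a fold moved with the filter and the pseudocount. At 1.5-fold, 4 higher and 6 lower (all genes 3.81% and 2.17%) became 2 and 10 after loess (2.51% and 3.57%), 1 and 2 with a pseudocount of 18.6 (2.06% and 1.06%), 1 and 0 with the filter at 109.4 (15 members left; 1.56% and 1.08%), 2 and 2 with each gene at the median of its probe sets (3.19% and 1.66%), and 6 and 15 with no low-value filter (6.48% and 5.95%). At 2-fold, 1 higher and 1 lower became 0 and 0 with a pseudocount of 18.6 and with the filter at 109.4, 4 lower with no filter, and 0 lower with the filter on the mean of both arrays. Class medians that moved by more than 0.26, the SD between probe sets of a gene, were Kv auxiliary (0.31 with the filter at 109.4), inward rectifiers (-0.11 with no filter), Cav alpha1 (0.37 without probe sets of s, x or a type) and the non-coding transcripts (-0.40 at the median of probe sets). Each setting changes which probe sets enter or how dim values are scaled; the cause of single shifts was not tested. None of the 10 members past 1.5-fold changed sign under a setting that gave it a value. Of the 10, 5 passed the filter on 1 array only, so their signs were fixed by entry. Settings under which a member did not pass could not show a change of sign. Cacnb1, Kcnd2, Kcnc4 and Kcnh3 did not pass at the median of probe sets, and the median ratio of Kcnh3 over all its probe sets is 0.05. Kcna7 and Kcnc4 did not pass with the filter on the mean of both arrays. Most members are dim, which limits their ratios.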
